A study of Mus musculus with 4 samples.

Results

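The extracellular matrix is the protein scaffold that cells secrete and rebuild, and 42 genes of it and of its remodelling were followed across 4 treatments of a kidney cell line. The genes encode collagens, basement membrane proteins, fibronectin and microfibril proteins, matricellular proteins, proteoglycans, crosslinking enzymes, proteases with their inhibitors, integrins, and a pair of contractile proteins that mark matrix-producing cells. A gene was taken from the probe sets annotated with that gene symbol and no other, and where there were several, the brightest by mean log2 signal was taken. Of the 42 genes, 39 had such a probe set among 18193 genes in all, Loxl2 had only probe sets shared with another symbol, and Fbn1 and Spp1 were not analysed here. A gene entered the comparisons when its mean log2 signal reached the median taken over all probe sets other than array controls, equal to a signal of 55.9, which 28 of the 39 did. Of all 18193 genes 11057 did. Just above that line stood Mmp2 and Lox, with mean signals of 67.9 and 74.5, and just below it Col1a2 and Col1a1, with 48.8 and 46.1.

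The cells were mDCT, an immortalised line that was derived from the mouse distal convoluted tubule. In all 4 groups they carried a transfected, FLAG-tagged human MR, the mineralocorticoid receptor that binds aldosterone, and the promoter that drove it is not given in the sources used here. Treatment began 48 h after transfection with the MR antagonist spironolactone or ethanol, and 2 h later aldosterone or ethanol was added for 3 h. The groups were 5 µM spironolactone followed by 100 nM aldosterone, called the spironolactone library below, ethanol alone, 1 nM aldosterone and 100 nM aldosterone, with 1 array each. No group received spironolactone alone. With 1 array per group there is no replicate error, no difference below was tested, and precision is limited by the number of arrays. "Higher" and "lower" below describe 2 arrays.

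The matrix of an epithelium has a sheet beneath the cells, the basement membrane, built on networks of laminin and type IV collagen that nidogens and perlecan link. The interstitial matrix behind it holds fibrillar collagens and fibronectin, which lysyl oxidases stiffen and metalloproteinases cut. Aldosterone acting on MR in the living kidney and heart is known for promoting fibrosis, the excess laying down of interstitial matrix, over days to weeks.

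The median signal of all probe sets lay between 58.9 and 61.7 in the 4 libraries, and the Pearson correlation of log2 signal between libraries was 0.991 to 0.992 across the 11057 genes that entered. Sgk1, a kinase gene known to respond to aldosterone, had a signal of 1424 in the spironolactone library, and 801, 935 and 1810.4 in ethanol, 1 nM and 100 nM aldosterone. Per1, Tsc22d3 and Fkbp5, further genes known to respond to corticosteroids, were higher with 100 nM aldosterone than in ethanol by 1.19, 0.94 and 0.40 on the log2 scale. With 1 nM aldosterone their differences from ethanol were -0.04, -0.02 and 0.52, so Per1 and Tsc22d3 were not higher at that dose. In the spironolactone library they were 0.60, 0.48 and 0.11 above ethanol. Markers of cell types were counted too, and the counts stand beside the 11057 of all 18193 genes that entered. Among defining markers of the distal convoluted tubule, the thiazide-sensitive cotransporter gene Slc12a3 stayed between 3.93 and 17.2, below the filter, and 6 of the 10 measured markers of that segment entered. The adherens junction gene Cdh1 also lay below the filter, and of 11 measured epithelial markers 3 entered (Epcam, Ocln and Pax8). Of 12 markers of fibroblasts or mesenchyme 6 entered, among them Vim and Cdh2 with signals of 21509 to 23768 and 9736 to 10772, while the fibroblast receptor genes Pdgfra and Pdgfrb and the proteoglycan gene Lum did not. Of 7 endothelial markers Kdr alone entered, and Pecam1 lay below the filter. Of 6 leukocyte markers Cd68 and Csf1r entered, Csf1r with signals of 864 to 1123, above the 75th percentile of signal, while Ptprc lay below the filter.

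Promoter windows are shown for Acta2 and Col4a1, since each belongs to a pair of genes described together below. They come from RefSeq, build GRCm38.p6, and run from 250 bases before to 50 bases after an annotated start. Acta2, whose signal was higher with both doses of aldosterone, has the window chr19:34255324-34255623 on the minus strand. The capitals mark AGAACA, one arm of the sequence that steroid receptors bind, on either strand.

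Acta2: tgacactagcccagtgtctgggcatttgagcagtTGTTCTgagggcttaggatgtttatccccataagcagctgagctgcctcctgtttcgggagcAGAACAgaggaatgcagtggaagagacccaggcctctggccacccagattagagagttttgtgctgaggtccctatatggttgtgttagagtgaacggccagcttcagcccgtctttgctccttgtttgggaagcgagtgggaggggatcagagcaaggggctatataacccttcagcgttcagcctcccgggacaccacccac

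The capitals begin 216 and 154 bases before the start. AGAACA on either strand was present in 19.0% of 32851 promoter windows, and in those of 4 of the 19 entered matrix genes that had a window: Acta2, Itgb1, Sparc and Fbln1. TGANTCA, the sequence that AP-1 factors bind, was present in 7.81% of windows and in 1 of the 19, that of Col6a1. A CArG box, the element of serum response factor that is known from smooth muscle genes, was searched as CC, 6 bases of A or T, and GG, which reads the same on both strands. These exact letters were present in 1.63% of windows and in 0 of the 19, which says only that the windows do not hold them. Elements that differ by a base were not searched across the windows. The Acta2 window printed above holds ccctatatgg and ccttgtttgg, which each differ from the pattern by a base. In the matrix genes no match of one motif overlapped a match of another. A match is a description of letters and not of binding.

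The genes of both chains of type IV collagen, Col4a1 and Col4a2, are transcribed in opposite directions from neighbouring starts, and their windows share 78 bases. The window of Col4a1 is chr8:11312777-11313076 on the minus strand, and the capitals mark the bases it shares with the window of Col4a2, chr8:11312555-11312854 on the plus strand.

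Col4a1: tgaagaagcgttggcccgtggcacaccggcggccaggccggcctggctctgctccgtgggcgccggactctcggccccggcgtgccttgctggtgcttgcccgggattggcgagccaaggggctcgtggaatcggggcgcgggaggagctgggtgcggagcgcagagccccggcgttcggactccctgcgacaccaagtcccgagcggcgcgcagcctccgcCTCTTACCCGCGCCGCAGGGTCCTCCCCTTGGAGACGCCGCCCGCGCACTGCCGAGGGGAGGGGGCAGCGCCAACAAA

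The annotated starts in these windows lie 21 bases apart, and 74% of the bases of the Col4a1 window are G or C, against a mean of 53.8% over all windows.

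Most of the matrix genes had nearly the same signal in all 4 libraries. For each gene the largest of its 4 signals was divided by the smallest, and 4 of the 28 genes reached 1.5. Col6a2 had a ratio of 2.17 and Acta2 1.75. No detection calls were at hand, so a signal under the filter is treated as no more than 55.9, which gives Col12a1 a ratio of at least 1.72 and Mmp2 at least 1.65. The ratio reached 1.5 in 14.3% of the matrix genes and in 12.1% of all 11057 entered genes, or 10.7% of these when 55.9 takes the place of any lower signal. All 4 were dim, with mean signals of 67.9 to 193. The median of this ratio was 1.20 for the matrix genes and 1.17 for all entered genes.

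Above the 75th percentile of signal, 419.8, stood 14 of the 28 genes, and 0 of them reached 1.5, where 1.54% of all 6936 genes above that signal did. Their median ratio was 1.13 (1.12 for all genes there) and their largest was 1.45, at the perlecan gene Hspg2. Between the filter and the 75th percentile 4 of 14 matrix genes reached 1.5, a share of 28.6%, where 29.8% of all 4121 genes of that signal did.

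**Figure D1:**
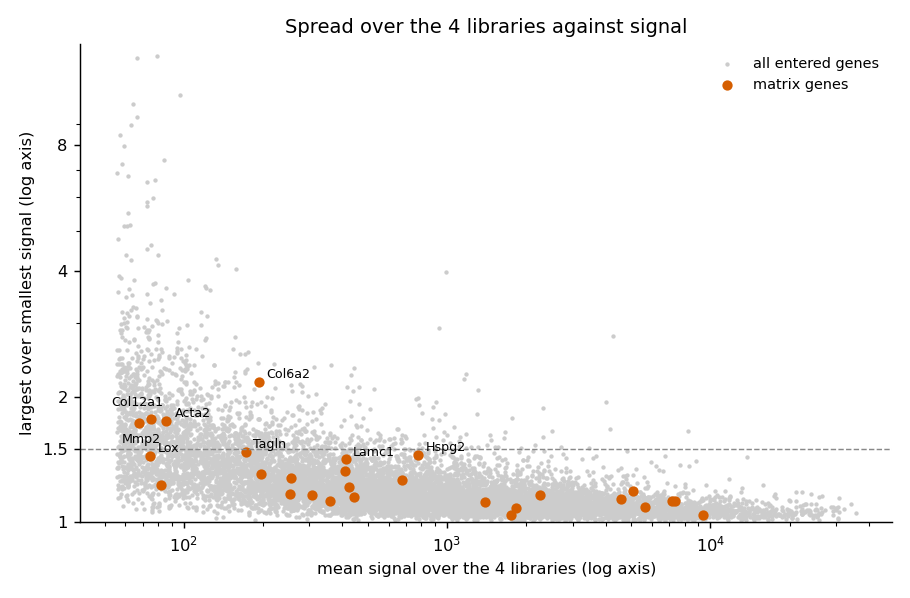
The largest signal divided by the smallest over the 4 libraries (vertical, log axis) against the mean signal (horizontal, log axis) for all 11057 entered genes (grey) and the 28 matrix genes (orange), with a dashed line at 1.5; signals are plotted as deposited, also those under the filter. The 4 matrix genes above the line, Col6a2, Col12a1, Acta2 and Mmp2, have mean signals of 67.9 to 193, where the grey points also spread widely.

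Of the fibrillar collagens, the rope-like collagens of interstitial matrix, Col5a1 alone entered. Col5a1, a chain of the type V collagen that seeds fibrils, had a signal of 716 in the spironolactone library, and 702, 718 and 569 in ethanol, 1 nM and 100 nM aldosterone. The 100 nM library was the low one, with a log2 difference of -0.30 from ethanol, where the second probe set differed by -0.15. In that second set 1 nM was the low library, with signals of 435 in the spironolactone library, and 483, 354 and 436 over the dose series. Col1a1, Col1a2 and Col3a1, the chains of the main fibrillar collagens, and Col5a2 lay below the filter, with signals no higher than 76.6 in any library, so no fold is given for them.

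All 6 network and other collagen genes entered. Col18a1, whose basement membrane collagen carries endostatin, had signals of 1719 in the spironolactone library, and 1783, 1716 and 1759 over the dose series from ethanol to 100 nM, a ratio of 1.04 between the largest and the smallest. Col4a1 had 435 in the spironolactone library, and 451, 412 and 473 over the dose series. Col4a2 had 286, and 256, 224 and 265 over the same series. Both type IV chains were lowest with 1 nM aldosterone and differed by 0.20 and 0.24 between the doses, 100 nM minus 1 nM. The dim second probe set of Col4a1 did not share the pattern of the first: it had 37.2 in the spironolactone library, and 176, 116 and 129 over the dose series.

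Col6a2, a chain of the microfibrillar type VI collagen, varied most of the 28 genes. Its signal was 280.1 in the spironolactone library, and 181, 129 and 211 in ethanol, 1 nM and 100 nM aldosterone. The spironolactone library was 1.55-fold above ethanol, and 100 nM was 1.64-fold above 1 nM. Its other probe set had 128 in the spironolactone library, and 138, 140.2 and 149 over the dose series, so the difference from ethanol was -0.11 there and 0.63 in the first. Col6a1, the partner chain in the same collagen, had 365 in the spironolactone library, and 383, 347 and 341 over the dose series. Its ratio of largest to smallest was 1.12.

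Col12a1, which encodes a collagen attached to fibril surfaces, had 54.6 in the spironolactone library, and 96.3, 82.2 and 74.7 over the dose series. The spironolactone library, whose signal lay under the filter, was lower than ethanol by at least 1.72-fold. The next brightest probe set had 73.3 in the spironolactone library, and 64.6, 49.4 and 64.8 over the dose series, a difference of 0.18 from ethanol.

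Of the basement membrane glycoproteins 6 of 7 entered, and Nid1 lay below the filter. With 100 nM aldosterone all 6 were lower than in ethanol, by log2 differences of -0.54 to -0.11, none of them 1.5-fold, while 18 of the 28 matrix genes and 5677 of all 11057 entered genes lay below 0 in that comparison. Hspg2, which encodes perlecan, the heparan sulphate proteoglycan of basement membranes, had signals of 712 in the spironolactone library, and 978, 774 and 674 over the dose series. The ethanol library was the high one, and the difference was -0.54 with 100 nM and -0.34 with 1 nM aldosterone. The other Hspg2 probe set had 330 in the spironolactone library, and 226, 204 and 228 over the dose series. Its highest library was the spironolactone one, and its 100 nM difference from ethanol was 0.02.

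Lamc1, the laminin gamma 1 chain found in most laminins, had 482 in the spironolactone library, and 416, 419.8 and 341 over the dose series. The spironolactone library was 1.41-fold above 100 nM aldosterone alone, the largest log2 difference of the matrix genes in that comparison at 0.50, and its other probe set differed by 0.23. That second probe set was lower with 100 nM than in ethanol by a similar amount to the first, -0.35 against -0.29. Lamb1, the beta 1 chain, had 5773 in the spironolactone library, and 5754, 5804 and 5329 over the dose series. Its next brightest probe sets differed by -0.05 and 0.14 between 100 nM and ethanol, where the first differed by -0.11. The probe set used for Lamb1 has the suffix _s_at, which on this array type marks probes that can match more than 1 transcript.

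The remaining chains and linkers had ratios of largest to smallest signal of 1.21 to 1.30. Lama5, the alpha 5 chain of kidney basement membranes, had 395 in the spironolactone library, and 467, 452 and 385 over the dose series. The next brightest Lama5 probe set had 300 in the spironolactone library, and 223, 291 and 200 over the dose series. There the spironolactone library was the highest, with a difference of 0.43 from ethanol, against -0.24 in the first. Lamb2, the beta 2 chain, was 216 in the spironolactone library, and 214, 166 and 195 over the dose series. Nid2, a nidogen that links laminin to collagen, lay between 73.4 and 90.3 in the 4 libraries.

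Fn1, which encodes fibronectin, the adhesive glycoprotein of interstitial matrix, had 5456 in the spironolactone library, and 5182, 5132 and 4597 over the dose series. The 100 nM library was the lowest, with a difference of -0.17 from ethanol, and the spironolactone library the highest, with 0.25 from 100 nM alone. A dimmer Fn1 probe set had 190.1 in the spironolactone library, and 252, 149.6 and 146 over the dose series, with a difference of -0.79 between 100 nM and ethanol. Fbln1, the matrix and basement membrane glycoprotein fibulin 1, lay between 287 and 333, and its next brightest probe set between 199 and 268.

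Matricellular proteins are secreted proteins that alter how cells attach to matrix, and 3 of the 6 genes entered. Sparc, a collagen-binding glycoprotein, had 6949 in the spironolactone library, and 7820.1, 7082 and 7508 over the dose series. Thbs1, thrombospondin 1, known as an activator of latent TGF-beta, had 428 in the spironolactone library, and 404, 348 and 461 over the dose series. Its 1 nM library was the low one and its 100 nM library the high one, with a difference of 0.41 between the doses and 0.34 in its other probe set. Tnc, the adhesion-modulating tenascin C, lay between 231 and 269.7. Thbs2 and Postn lay below the filter with signals no higher than 32.9, and so did the small leucine-rich proteoglycans Bgn and Dcn, no higher than 44.7.

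Of the lysyl oxidases, which crosslink collagen and elastin, Loxl1 had 1369.6 in the spironolactone library, and 1329, 1407 and 1481 over the dose series. Lox had 76.4 in the spironolactone library, and 89.2, 61.9 and 73.0 over the dose series. The 1 nM library was the low one, with a difference of -0.53 from ethanol, while the next brightest probe set, which was below the filter, had its highest signal there.

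Of the metalloproteinases, Mmp2 alone entered, and Mmp9 and Mmp14 lay below the filter. Mmp2, which encodes the gelatinase that cuts type IV collagen and denatured collagen, had 92.4 in the spironolactone library, and 53.5, 54.2 and 79.3 in ethanol, 1 nM and 100 nM aldosterone. Both libraries that received 100 nM aldosterone were above the filter, and the other two lay under it. The spironolactone library was at least 1.65-fold and the 100 nM library at least 1.42-fold above ethanol. A second probe set, below the filter, had 41.6 in the spironolactone library, and 12.6, 27.6 and 77.9 over the dose series. That set was highest with 100 nM alone.

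The 3 genes for tissue inhibitors of metalloproteinases all entered and were nearly level. Timp2, which both inhibits and helps to activate Mmp2, had 9589 in the spironolactone library, and 9537, 9309 and 9219 over the dose series. Its ratio of largest to smallest was 1.04. Timp1 had 1847 in the spironolactone library, and 1776, 1919 and 1806 over the dose series, and Timp3, which stays bound to matrix, had 2085, and 2419.8, 2327 and 2219. Signals of different probe sets are not compared with each other, because probes differ in how strongly they hybridise.

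Both integrin chains, the receptors that hold cells to fibronectin and other matrix, entered. Itgav had 7508.5 in the spironolactone library, and 7089, 7235 and 6690.1 over the dose series. Itgb1 had 4557 in the spironolactone library, and 4238, 4824 and 4799 over the dose series. For Itgb1, 100 nM and 1 nM aldosterone were higher than ethanol by 0.18 and 0.19, and by 0.15 and 0.30 in the next brightest probe set. A dimmer Itgb1 probe set, also above the filter, had 302 in the spironolactone library, and 228, 285 and 360 over the dose series. Its differences from ethanol were 0.66 with 100 nM, past 1.5-fold, and 0.32 with 1 nM.

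**Figure D2:**
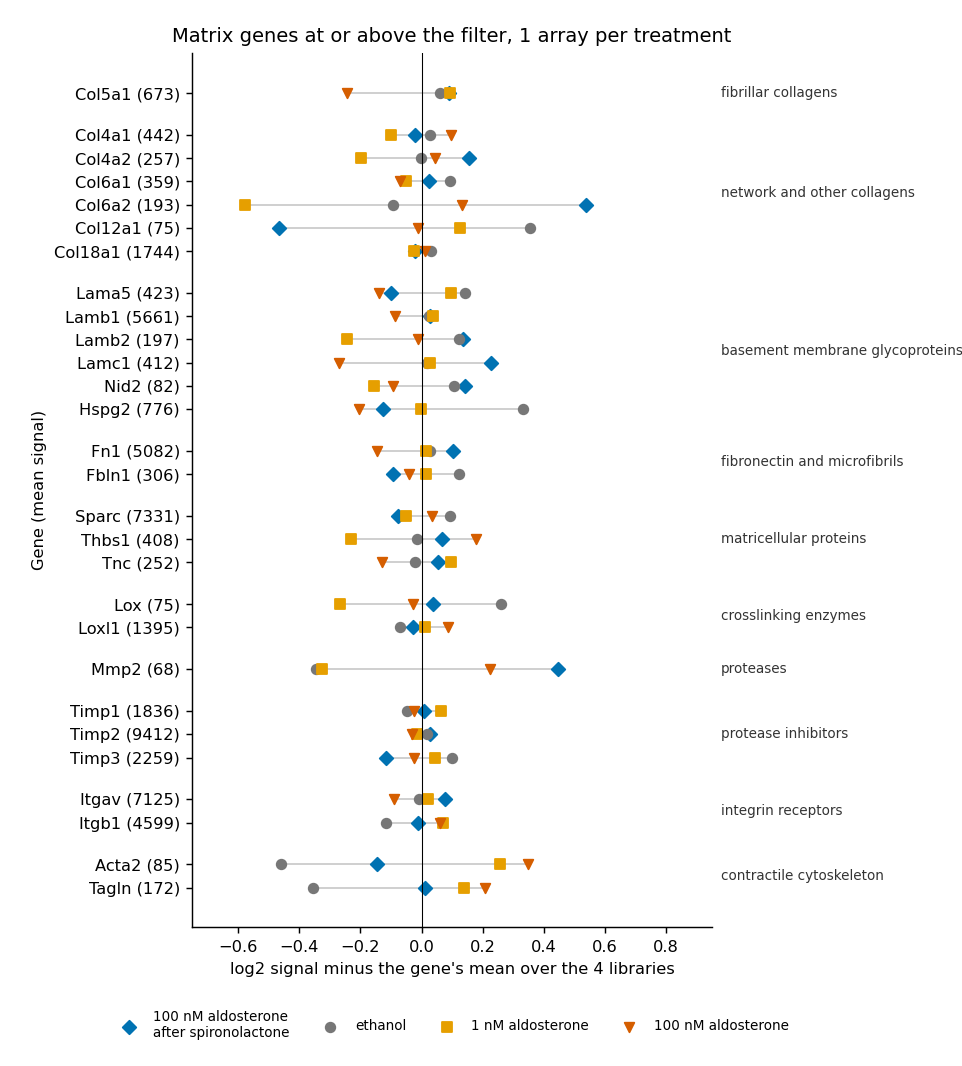
Log2 signal of each of the 28 entered matrix genes in each library, minus the gene's own mean over the 4 libraries (horizontal), with the mean signal in brackets beside the gene and genes grouped by role; each point is 1 array. Timp2 and Col18a1 are nearly level, with ratios of 1.04 between the largest and smallest signal, and Col6a2 spans the widest range, 2.17.

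Acta2 and Tagln, the smooth muscle actin and transgelin genes that are used as markers of contractile, matrix-producing cells, were both higher with aldosterone. Acta2 had a signal of 77.0 in the spironolactone library, and 62.0, 102 and 109 in ethanol, 1 nM and 100 nM aldosterone. Tagln had 173 in the spironolactone library, and 134, 189 and 198 over the dose series. At both genes ethanol was the lowest library, 100 nM the highest, and the spironolactone library stood between ethanol and both doses of aldosterone alone. The 100 nM difference from ethanol was 0.81 for Acta2 and 0.56 for Tagln, and the 1 nM difference 0.72 and 0.49. The spironolactone library differed from 100 nM alone by -0.50 and -0.20. These comparisons share arrays, so the values stand side by side and do not bear each other out.

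Tagln had a single probe set. The Acta2 probe set has the suffix _s_at, so its probes may match other transcripts too, and the next brightest one lay below the filter, with signals no higher than 26.3. Of 5 smooth muscle markers, Smtn and Des entered, and Myh11, Cnn1 and Actg2 lay below the filter. The summed signal of these 5 was 562 in the spironolactone library, and 697, 762 and 848 over the dose series, and their part in the Acta2 and Tagln values was not tested. Most of that sum is Smtn, a smoothelin gene, with 471 in the spironolactone library, and 515, 509.8 and 653 over the dose series. Des, the desmin gene, had 60.3, and 137, 164 and 156. Myh11 was highest in ethanol, at 33.1, so the sum gives no order for the markers as a group. In a culture measured as a whole, more cells of a kind and more RNA per cell cannot be told apart.

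**Figure D3:**
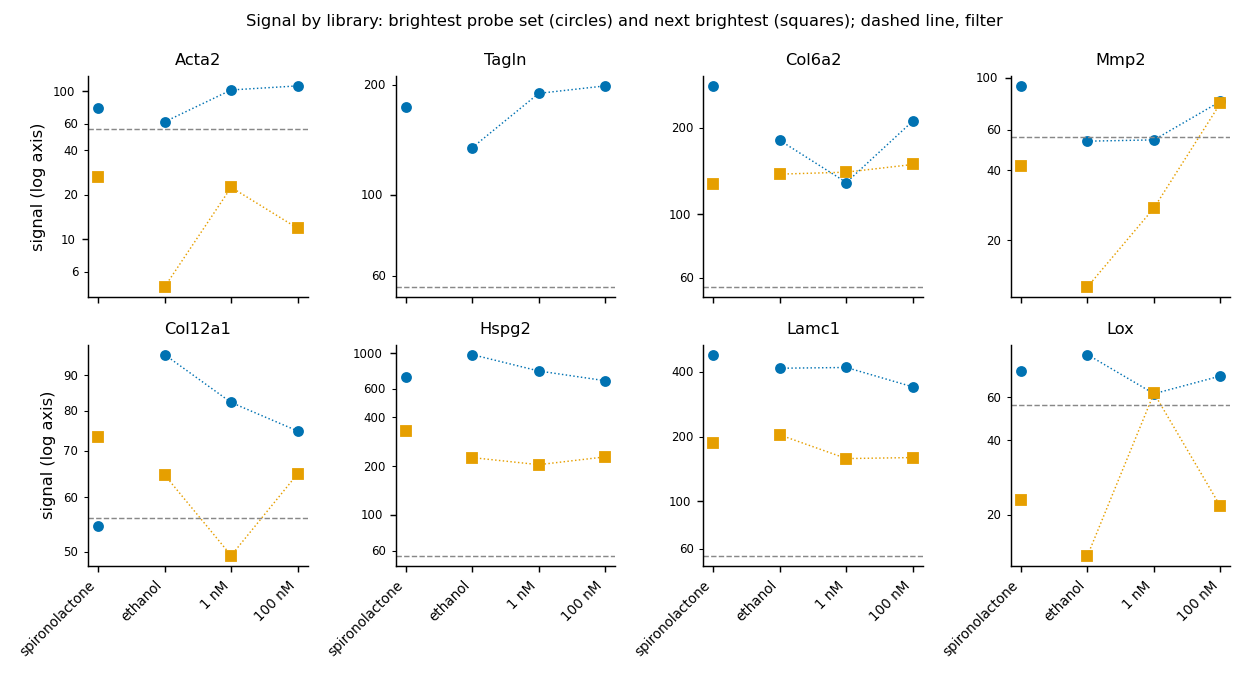
Signal (vertical, log axis, a scale of its own in each panel) of the 8 matrix genes with the widest ratio of largest to smallest signal in the 4 libraries, for the brightest probe set (blue circles) and the next brightest (orange squares); each point is 1 array, the dotted line joins the dose series, and the dashed line is the filter at 55.9. Tagln and Acta2 have their lowest circle in ethanol, and the squares of Col6a2 lie between 128 and 149 while its circles run between 129 and 280.1.

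Set against ethanol, the 100 nM library shows what differed after 3 h of the higher dose. Of the 28 genes 1, Acta2, was at least 1.5-fold higher, where 2.39% of all entered genes were, and 0 were 1.5-fold lower, where 1.72% were. The median log2 difference was -0.10 over the matrix genes and 0.00 over all entered genes. Tagln (1.48-fold) and Mmp2 (at least 1.42-fold) stood next on the higher side and Hspg2 at the lower end.

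In the comparison of 1 nM aldosterone with ethanol, 1 gene was at least 1.5-fold higher, again Acta2 (1.64-fold), against 2.61% of all entered genes. At that fold 0 were lower, against 2.07%. The median was -0.05, and 21 of the 28 genes differed by less than 0.25 on the log2 scale. Lox (-0.53), Col6a2 (-0.49) and Lamb2 (-0.37) were the lowest.

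Between the doses, 100 nM minus 1 nM, Col6a2 alone was at least 1.5-fold higher, against 2.04% of all entered genes, and 0 were lower, against 1.96%. The median was -0.01. After Col6a2 came Mmp2, at least 1.42-fold higher with 100 nM since its 1 nM signal lay under the filter, and Thbs1 with a difference of 0.41.

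The spironolactone library was set against 100 nM aldosterone alone to see what differed with the antagonist present. In that comparison 0 of the 28 genes were 1.5-fold higher and 0 were 1.5-fold lower, where 1.83% and 2.51% of all entered genes were. The median was 0.06, and the differences ran between -0.50, at Acta2, and 0.50, at Lamc1. All 6 basement membrane glycoproteins were higher with spironolactone than with 100 nM alone, by 0.04 to 0.50. Of all 28 genes 17 were higher, and of all 11057 entered genes 5456 were. The 100 nM array is the same one that was set against ethanol above, so the lower values there and the higher values here share that array and do not bear each other out.

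Against ethanol, the spironolactone library had 2 genes at least 1.5-fold higher, Col6a2 and Mmp2, against 2.17% of all entered genes. It had 1 lower, Col12a1, against 2.03%. The median was 0.03. Since no library had the antagonist by itself, these differences belong to both agents together.

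**Figure D4:**
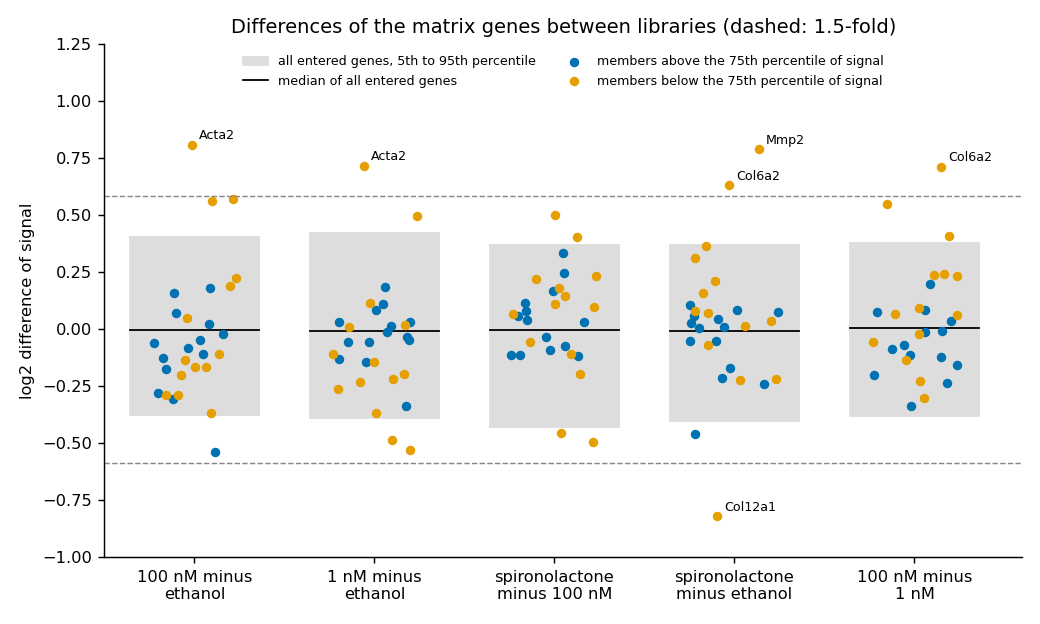
Log2 difference of signal (vertical) of the 28 matrix genes in the 5 comparisons, each point 1 gene, blue above and orange below the 75th percentile of signal; the grey box spans the 5th to the 95th percentile of all entered genes, the black line their median, and the dashed lines 1.5-fold. The named genes past the dashed lines are Acta2, Col6a2, Mmp2 and Col12a1, all orange.

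A second probe set at or above the filter was present for 17 of the 28 genes, and shows how far measurements of 1 gene differ on the same arrays. It is not a replicate of a treatment. For 100 nM minus ethanol the log2 differences of the first and second probe set lay a median of 0.11 apart in the matrix genes and 0.16 in all 5218 genes with such a pair. For spironolactone minus ethanol the median gap was 0.30 in the matrix genes and 0.15 in all. The sign was the same in 11 of 17 matrix genes in the first case and in 8 of 17 in the second. Of all 5218 genes with such a pair it was the same in 2714 and 2863. Of the genes past 1.5-fold, Col6a2 and Col12a1 had such a second probe set, and 0 of these passed 1.5-fold with it. Few of all genes with such a pair did. For spironolactone minus ethanol, 4 of the 64 past 1.5-fold in the brightest set also passed it, in the same direction, in the second. For 100 nM minus 1 nM these were 10 of 83.

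**Figure D5:**
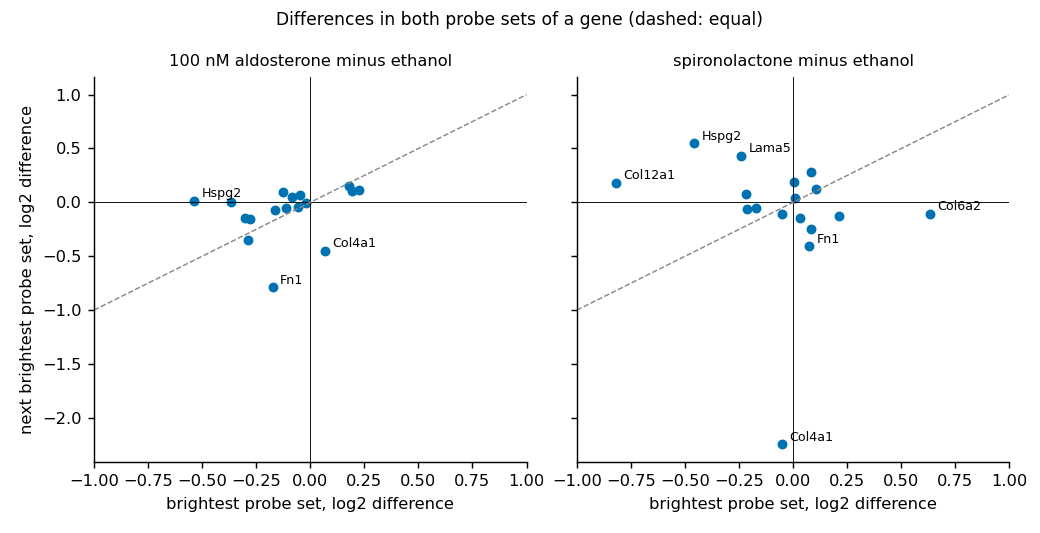
Log2 difference in the next brightest probe set (vertical) against the brightest (horizontal) for the 17 matrix genes with both at or above the filter, for 100 nM aldosterone minus ethanol (left) and the spironolactone library minus ethanol (right); the dashed line marks equality. Hspg2, Col12a1, Lama5 and Col6a2 lie on opposite sides of 0 in the right panel.

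The library that held a gene's lowest signal was counted too. The 100 nM library was the lowest for 10 of the 28 genes (35.7%, and 25.2% of all entered genes). Above the 75th percentile of signal it was the lowest for 7 of 14, among them Lamb1, Fn1, Itgav and Col5a1, a share of 50%, where 26.1% of all genes there had their lowest signal in that library. The ranks were taken from the brightest probe set of each gene, and the next brightest did not always share them. In the next brightest, 100 nM was again the lowest library for Lama5, Lamb1 and Fn1. It was not the lowest for Col5a1, Hspg2, Timp2 and Itgav, and at Timp2 it was the highest, with 5722. The differences behind the ranks were small. In those 14 genes the 100 nM difference from ethanol had a median of -0.07, and the lowest, -0.54, was that of Hspg2.

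The wider matrix was described with a second list of 127 genes: other collagens, collagen-processing enzymes, laminins, glycoproteins, proteoglycans, proteases, inhibitors and receptors. Of these 119 had a probe set of their own and 67 entered, and 15 of the 67 (22.4%) had a largest signal at least 1.5 times the smallest, where 12.1% of all entered genes did. With 55.9 in place of any lower signal these were 14 of the 67 (20.9%), and 10.7% of all. Above the 75th percentile of signal 2 of 36 reached 1.5 (5.56%, and 1.54% of all genes there), and below it 13 of 31 (41.9%, and 29.8% of all). With 100 nM aldosterone 2 of the 67 were at least 1.5-fold higher than in ethanol, where 2.39% of all entered genes were, and 0 lower, where 1.72% were. Sdc3, the transmembrane proteoglycan syndecan 3, had a signal of 225 with 100 nM aldosterone against 98.4 in ethanol. Ccn2, a matrix-associated growth factor gene known as a target of TGF-beta, had 5602 against 3342. The list's median was -0.04.

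With 1 nM aldosterone 4 of the 67 were at least 1.5-fold higher than in ethanol and 1 lower, where 2.61% and 2.07% of all entered genes were. Matn2, a matrilin that forms filaments, had 296 against 159 in ethanol. Col4a5, a type IV collagen chain of the glomerular and tubular basement membrane, had 3259 against 2149.6. Fras1, which anchors basement membranes during development, was higher by 0.63 and the membrane-type metalloproteinase Mmp24 by 0.60, and Adamts10, a protease linked to microfibrils, had a difference of -0.84.

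Between the doses Ccn2 (0.96) and Sdc3 (0.68) were higher with 100 nM than with 1 nM, and Fras1 (-0.67) and Matn2 (-0.62) lower, 2 of the 67 each way, where 2.04% and 1.96% of all entered genes were. The spironolactone library was higher than 100 nM alone at 1 gene of the second list, the fibronectin receptor chain Itga5 (0.72), where 1.83% of all entered genes were. It was lower at 2, Reck (-0.68), a membrane-bound inhibitor of metalloproteinases, and the shedding protease Adam12 (-0.60), where 2.51% were. Reck had 115 in the spironolactone library, and 127, 131 and 184 over the dose series, so 100 nM alone was the high one. Against ethanol the spironolactone library was 1.5-fold higher at Sdc3 (0.95) and Cspg4 (0.62), a membrane proteoglycan, where 2.17% of all entered genes were, and lower at the integrin chain Itgb8 (-0.74), where 2.03% were. Lamc3, the laminin gamma 3 chain, lay under the filter in the spironolactone library, against a signal of 74.2 in ethanol, so it was lower by at least 1.33-fold, which does not reach 1.5.

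The 12 entered collagen-processing genes, whose products hydroxylate, fold and trim collagen chains, included 0 past 1.5-fold in any of the 5 comparisons. Of all entered genes 1.72% to 2.61% were past it in a given direction of 1 comparison. Over all 4 libraries, 12.1% of them had a largest signal at least 1.5 times the smallest. With only 12 genes, the count of 0 is not read as a result about them. Their differences between 100 nM aldosterone and ethanol ran between -0.44 and 0.29. The 11 entered matrix receptors included 0 past 1.5-fold between 100 nM aldosterone and ethanol, where 2.39% of all entered genes were higher and 1.72% lower. Their differences were -0.30 to 0.02, and Itga5 and Itgb8 passed 1.5-fold in other comparisons, as given above.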

How the data were processed

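Total RNA (250 ng per sample) was labelled and hybridised to an Affymetrix 3' array, 1 per treatment. The authors deposited probe set intensity values on a linear scale, and MAS5 is the tool that the submitters' processing notes name. Its version, its scaling target and its detection calls were not given in the sources used here. A mean signal trimmed by 2% at each end was the same in all libraries (500.003), so no further scaling was applied. The 45101 probe sets, 64 of them array controls, were named from the platform annotation, and the symbols of the 39 matrix genes measured were matched by Entrez identifier to RefSeq (GRCm38.p6), which changed 0 of them. The number of other sample columns was 0.

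Log2 differences were taken with no pseudocount. A gene was called at 1.5-fold (0.58 on the log2 scale), and no test was possible with 1 array per treatment. All members are accounted for, and 4 signals are printed for members whose signals spanned 1.5-fold, for the 3 of highest signal, for the brightest of each role and for others as description. Of the second list, genes past 1.5-fold are named. The members, lists and rules were chosen with earlier results of these data known. Alternatives changed the normalization, probe sets, filter, floor and offset. The counting was tested on simulated data, with Python 3.11.15, numpy 2.4.6, pandas 2.3.3, scipy 1.17.1 and matplotlib 3.10.9.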

Additional observations from a re-analysis of the deposited data

How the results depend on the processing

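The 15 results (members 1.5-fold higher, members 1.5-fold lower and the median, in 5 comparisons) were recomputed under 7 alternatives. The medians ranged between -0.12 and 0.08 on the log2 scale over all of these. With 1 array per treatment no replicate could be left out, and no paired analysis was possible because each treatment has 1 library. The counts are small and moved with the filter. Without a filter, over 39 genes, 6 were higher and 2 lower for 100 nM minus ethanol. For 1 nM minus ethanol the counts were 3 and 3. For spironolactone minus ethanol they were 5 and 6, and for 100 nM minus 1 nM 6 and 1. For spironolactone minus 100 nM 7 were lower. The share of all genes without a filter is not given, so these counts cannot be set beside it. The added calls came from the 11 genes below the filter. With lower signals raised to the filter, the widest ratio of largest to smallest signal among these 11 was 1.37, at Col1a2, under 1.5. With the filter at the 75th percentile, or with an offset of 50 added to each signal, every count that had been above 0 was 0. With quantile normalization 2 genes were higher for 100 nM minus ethanol (Acta2, and Tagln with 0.59) and 2 for 100 nM minus 1 nM (Col6a2, and Mmp2 with 0.62, its 1 nM signal being under the filter). With the median difference of all a gene's probe sets that passed the filter, 1 gene, Col4a1, was lower for spironolactone minus 100 nM (-0.96, from probe sets at -0.12 and -1.80). For spironolactone minus ethanol 1 was higher, Mmp2, and the 1 lower gene was Col4a1 (-1.15, from -0.05 and -2.25) in place of Col12a1 (-0.32), while Col6a2 differed by 0.26. The dim Col4a1 probe set had a spironolactone signal of 37.2, under the filter. By the same median 0 were higher for 100 nM minus 1 nM. Signals near the filter limit what can be said of Acta2, Mmp2, Col12a1 and Lox. The cause of these shifts was not tested beyond the fewer or more genes counted.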
